A study of Mus musculus with 10 samples.

Results

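The genes described here are 10 genes of the NF-kB pathway (cytokines, a receptor, feedback inhibitors, transcription factor subunits and a co-regulator), measured by RNA sequencing in the mouse RPE/choroid complex, the retinal pigment epithelium (RPE) together with the vascular layer behind it. They were taken by name from the 55487 distinct genes of the count table: Tnf, Il1b, Il6, Nfkbia, Tnfaip3, Nfkb1, Nfkb2, Relb, Bcl3 and Tnfrsf1b. The study holds 5 control and 5 ADQ samples. All came from iDTR mice, a C57BL/6 line with the Gt(ROSA)26Sortm1(HBEGF)Awai allele, whose diphtheria toxin receptor is silent until Cre recombinase acts, and all received diphtheria toxin by intraperitoneal injection. ADQ mice carried in addition an adiponectin-Cre transgene, whose promoter is active in fat cells, so that the toxin receptor is switched on there; the control genotype is iDTR without Cre. Toxin was given daily for 7 weeks according to the series description, which speaks of the Cre mice; age and sex are not in the labels, and nothing there says whether each sample is a separate animal. The p-values set each group difference against the spread of samples within a group, part of which may be technical. If samples are not separate animals, that spread may understate the variation between animals, and p may be too small.

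NF-kB is a family of dimeric transcription factors held in the cytoplasm by inhibitory IkB proteins. Signals such as tumour necrosis factor (TNF) or interleukin-1 (IL-1) activate a kinase that marks the inhibitor for destruction, after which the dimer enters the nucleus and switches on cytokines, adhesion molecules and its own inhibitors. The inhibitors then end the response, so that the RNA of feedback genes such as Nfkbia and Tnfaip3 is widely used as a readout of recent NF-kB activity. In the back of the eye, macrophages, endothelium and RPE can all take part in this response.

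NF-kB dimers bind short sites known as the kappaB consensus, and matches to it near the start of a gene show which members carry such letters close by. The 250 bases before each RefSeq transcript start (GRCm38.p6) were searched on both strands for this 10-base consensus. RefSeq windows were found for 8 of the 10 genes, with 11 windows in all; 6 of these, belonging to Il6, Nfkb2, Nfkbia and Tnfaip3, held a match. Of all 32851 windows 7.25% did. Every matched stretch of Nfkbia, Tnfaip3 and Il6 is shown and 1 of Nfkb2, of which 3 further ones are not. The stretches are written 5′ to 3′ on the strand of the gene, with the match in capitals.
Nfkbia, chr12:55492657-55492686, minus strand: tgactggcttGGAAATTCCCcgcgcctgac
Tnfaip3, chr10:19015516-19015545, minus strand: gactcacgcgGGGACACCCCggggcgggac
Tnfaip3, chr10:19015411-19015432, minus strand: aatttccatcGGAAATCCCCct
Il6, chr5:30013060-30013089, plus strand: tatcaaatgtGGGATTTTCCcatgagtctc
Nfkb2, chr19:46304689-46304717, plus strand: gatcgtcacGGGAATTCCCCccctcgggg
The Nfkbia match lies 29 to 20 bases before the transcript start and the Il6 match 44 to 35 bases before it, both ahead of every transcript that GENCODE annotates. The Tnfaip3 matches lie in an intron of a longer annotated transcript, 125 to 116 and 12 to 3 bases before the start used. In Nfkb2 the capitals are 2 overlapping matches inside the first exon of a longer transcript. A match is a description of these letters and not evidence of binding in this tissue.

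Libraries held 43.6 to 64.1 M counts (M, mega). The 7 RPE markers made up 4.01 ± 0.38% of control counts and 3.58 ± 0.333% of ADQ counts (SD, n = 5 each), and none was at 0 in any library. Control 5 stood apart from the other controls: its summed fat cell markers were at 6.42 CPM (counts per M of the library) against 65.6 to 155 in controls 1 to 4 and 7.36 to 24.9 in ADQ, and its T and NK cell markers at 103 CPM against 28.4 to 42.2 in controls 1 to 4. Calls of the genes named here that turn on that library are given with and without it. All CPM values are scaled by TMM, a correction for library composition, and fold changes are ADQ over control from edgeR's quasi-likelihood test, with p adjusted by Benjamini-Hochberg over all 20684 genes tested.

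None of the 9 members that could be tested passed an adjusted p of 0.05 in edgeR, where 0.827% of all genes did, 0.74% higher and 0.087% lower in ADQ. The largest differences were in Tnfaip3 and Tnf, each 1.6-fold higher in ADQ; Il1b was at 0.703 and Tnfrsf1b at 1.26 times the control level. The NF-kB subunits, Bcl3 and the inhibitor Nfkbia had fold changes between 0.984 and 1.17. Unadjusted p was under 0.05 in 3 of the 9, against 13.8% of all genes. DESeq2 and limma voom each called 1 member, Tnfaip3 in both cases, where they called 3.26% and 3.21% of all genes. Log2 fold changes were above 0 in 7 of the 9, with a median of 0.22, against 51.8% above 0 and a median of 0.012 over all genes tested. In no member did the groups separate fully, whereas every ADQ library lay above every control library in 2.09% of all genes and below in 1.07%.

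**Figure D1:**
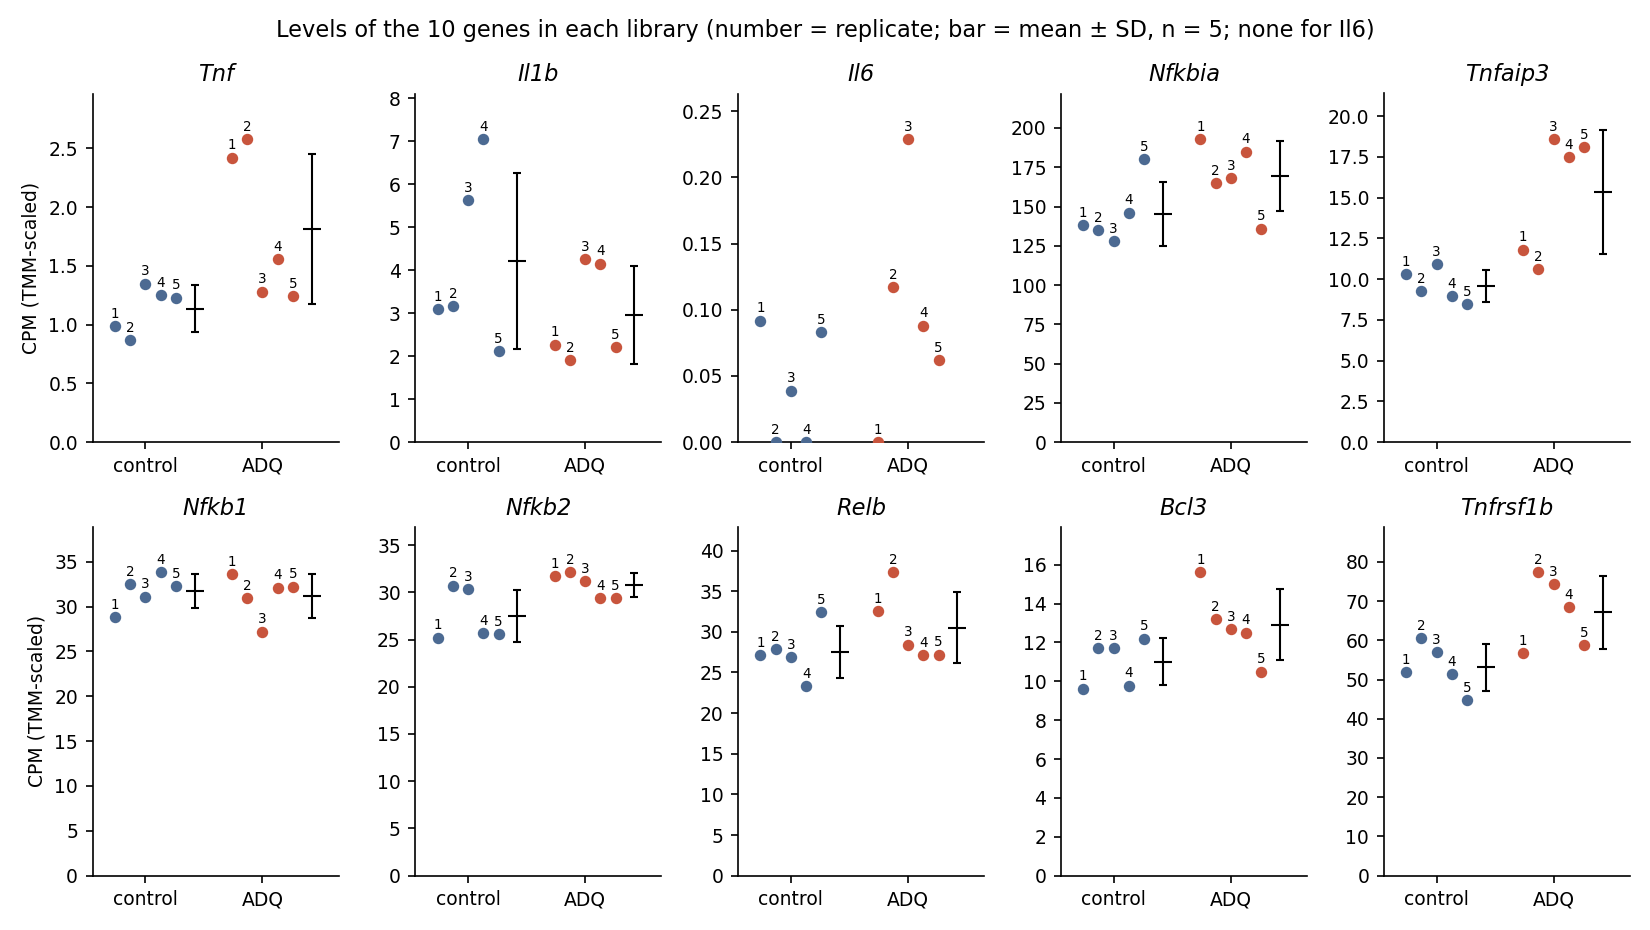
Levels of the 10 genes in CPM (vertical axes, linear, starting at 0) in each of 5 control (blue) and 5 ADQ (red) libraries, numbered by replicate, with mean ± SD beside them except for Il6. In Tnfaip3 ADQ 3, 4 and 5 sit between 17.5 and 18.6 CPM, and in Tnf ADQ 1 and 2 sit above 2.4 CPM, while the other ADQ libraries of each gene lie near the controls.

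Compared per length of exon sequence, taken as the union of each gene's annotated exons, the members covered a wide range of levels. In control, Nfkbia was highest at 90.2 ± 12.6 CPM per kilobase, followed by Tnfrsf1b at 13.9 ± 1.58, Relb at 7.09 ± 0.834, Nfkb2 at 6.00 ± 0.598 and Bcl3 at 4.44 ± 0.487 (SD, n = 5 throughout). Below them came Nfkb1 at 2.63 ± 0.154, Il1b at 2.21 ± 1.07, Tnfaip3 at 1.33 ± 0.139, Tnf at 0.693 ± 0.122 and Il6 at 0.0176 ± 0.0181 CPM per kilobase. Among neighbours in this order, the control libraries of Relb and Nfkb2, of Nfkb1 and Il1b, and of Il1b and Tnfaip3 overlapped. The order in ADQ was the same except that Tnfaip3, at 2.12 ± 0.524 CPM per kilobase, stood above Il1b, at 1.55 ± 0.601. In ADQ the libraries of Relb and Nfkb2, of Nfkb1 and Tnfaip3, of Tnfaip3 and Il1b, and of Il1b and Tnf overlapped. Nfkbia was the highest member per length in both groups and Il6 the lowest, neither overlapping its neighbour. The exon length was 12.1 kilobases for Nfkb1 and 7.23 for Tnfaip3, against 2.48 for Bcl3. In CPM not divided by length, the control mean of Nfkb1 (31.7) was above those of Relb and Nfkb2 (27.5 each) and of Bcl3. The place of Nfkb1 below these genes thus depends on the length used. Which transcripts were present in this tissue was not tested.

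The cytokines come first by role. Tnf, which encodes the ligand that gives the TNF pathway its name, was at 0.985, 0.868, 1.35, 1.25 and 1.23 CPM in controls 1 to 5. In ADQ 1 to 5 it was at 2.42, 2.58, 1.28, 1.56 and 1.24 CPM. ADQ 1 and 2 were thus the highest, ADQ 4 lay a little above all controls, and ADQ 3 and 5 lay inside the range of the controls. The difference was 1.6-fold (log2 fold change 0.68, SE 0.27, 95% interval 0.09 to 1.26, edgeR adjusted p = 0.3). These values rest on 43 to 132 counts per library. Tnf (ENSMUSG00000024401) lies on chromosome 17 at 35199381 to 35202007, minus strand.

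Beside Tnf stand the markers of macrophages and microglia, cells that make TNF. All 14 markers tested had a log2 fold change above 0 and 2 of them passed. Their summed level was 5980 to 8260 CPM in control and 6530 to 10300 CPM in ADQ, highest in ADQ 1 (10300) and ADQ 2 (9070). Control 1 came next (8260), above ADQ 3, 4 and 5 (6530, 7210 and 7370), though its Tnf was at only 0.985 CPM. None of the 14 markers was at 0 in any library. As a share of counts they were at 0.663 ± 0.0577% in control and 0.826 ± 0.113% in ADQ (exact two-sided permutation p = 0.0238, adjusted p = 0.0762 over 16 marker lists). Their part in the Tnf values was not tested. In these bulk samples, more cells of a type and more RNA per cell cannot be told apart.

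Il1b, which encodes IL-1 beta, went the other way without passing. It was at 3.09, 3.16, 5.62, 7.05 and 2.12 CPM in controls 1 to 5 and at 2.27, 1.9, 4.25, 4.15 and 2.21 CPM in ADQ 1 to 5. Controls 3 and 4 and ADQ 3 and 4 were the 4 highest libraries, and the groups overlapped over most of their range. The log2 fold change was -0.51 (SE 0.34, 95% interval -1.24 to 0.23, edgeR adjusted p = 0.511). An antisense transcript overlaps Il1b, but its own count reached only 10 in any library.

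Il6, which encodes interleukin-6, was barely detected. Counts were 4, 0, 2, 0 and 4 in controls 1 to 5 and 0, 6, 12, 4 and 4 in ADQ 1 to 5. It did not pass the filter on low counts and was not tested, and no fold is given; in the edgeR fit with no such filter its adjusted p was 0.613. The count of 0 allows up to 3 counts, which is 0.0592 CPM in control 2, 0.0647 CPM in control 4 and 0.0649 CPM in ADQ 1, by counting error alone.

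The receptor among the members is Tnfrsf1b, TNF receptor 2, which is found mainly on leukocytes and endothelium. It was at 51.9, 60.6, 56.9, 51.3 and 44.7 CPM in controls 1 to 5 and at 56.7, 77.3, 74.4, 68.4 and 58.7 CPM in ADQ 1 to 5. ADQ 2, 3 and 4 lay above every control, and ADQ 1 and 5 inside their range. The difference was 1.26-fold (log2 fold change 0.34, SE 0.11, 95% interval 0.10 to 0.57, edgeR adjusted p = 0.192). Without control 5, its lowest library, the log2 fold change was 0.28 (edgeR adjusted p = 0.307). The widely expressed TNF receptor 1 gene, Tnfrsf1a, was at 137 ± 4.63 CPM in control and 138 ± 10.2 CPM in ADQ (SD, n = 5), with a 95% interval of its log2 fold change from -0.15 to 0.17.

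Of the feedback inhibitors, Tnfaip3 had the smallest p of all members. It encodes A20, a ubiquitin-editing enzyme that shuts down signalling from the TNF receptor to NF-kB. Controls 1 to 5 were at 10.3, 9.25, 10.9, 8.95 and 8.46 CPM, and ADQ 1 to 5 at 11.8, 10.6, 18.6, 17.5 and 18.1 CPM. ADQ 3, 4 and 5 lay together well above the controls, ADQ 1 just above them and ADQ 2 inside their range. The means were 9.58 ± 1.00 and 15.3 ± 3.78 CPM (SD, n = 5), a 1.6-fold difference (log2 fold change 0.68, SE 0.16, 95% interval 0.33 to 1.03). With edgeR the adjusted p was 0.0815, at rank 262 of the 20684 genes by p.

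Whether Tnfaip3 passed depended on the method. The authors' deposited table gives it an adjusted p of 0.0359 (log2 fold change 0.69), in a table where 5.42% of 15860 genes were called and 3.79% were called higher; it is the 1 member called there, of 9 listed. The adjusted p was 0.00759 with DESeq2, 0.0466 with voom and 0.0268 in edgeR without a filter on low counts. Leaving out ADQ 2 gave an edgeR adjusted p of 0.0465, and leaving out any other library gave values from 0.0502 to 0.198. The log2 fold change stayed between 0.60 and 0.78 without any single library. Rod photoreceptor markers, from retina that can adhere to the dissected tissue, were at 954, 2320 and 3450 CPM in ADQ 3, 4 and 5, and at 695 and 309 CPM in ADQ 1 and 2. In control they were at 1720 CPM in control 1, where Tnfaip3 was at 10.3 CPM, and at 300.0 to 400.0 CPM in the others. All 8 rod markers had a log2 fold change above 0, none passed, and none was at 0 in any library. Their part in the Tnfaip3 values was not tested.

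The 5 protein-coding genes whose levels over the 10 libraries lay closest to those of Tnfaip3 were Rnf145, Vamp2, Map2, Pi4kb and Rnf207. Closeness was the mean absolute difference between log2 CPM profiles, each centred on its mean and divided by its SD. It was 0.267 to 0.289 SD units for these 5, out of 13737 genes compared, whose median was 1.09. Vamp2 was at 137 ± 8.75 CPM in control and 161 ± 18.2 CPM in ADQ, and Map2 at 2.93 ± 0.177 and 5.09 ± 2.02 CPM. Rnf207 was at 0.834 ± 0.324 and 3.11 ± 2.18 CPM, Rnf145 at 105 ± 3.45 and 116 ± 7.84 CPM, and Pi4kb at 12.7 ± 1.19 and 15.1 ± 2.1 CPM. None of these 5 genes passed in edgeR (adjusted p = 0.152 to 0.413). Among the members, Tnfrsf1b lay nearest to Tnfaip3, at 0.614 SD units, while Nfkbia was at 0.963, Tnf at 1.08 and Nfkb1 at 1.26.

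Nfkbia encodes IkB alpha, the inhibitor that is destroyed on activation and then remade. Controls 1 to 5 were at 138, 135, 128, 146 and 180.0 CPM, and ADQ 1 to 5 at 193, 165, 168, 185 and 136 CPM. ADQ 1 and 4 lay above every control, ADQ 2 and 3 above all controls but control 5, and ADQ 5 among the lowest libraries. The log2 fold change was 0.22 (SE 0.11, 95% interval -0.02 to 0.47, edgeR adjusted p = 0.404). Without control 5, the highest control, the edgeR adjusted p was 0.234 and the log2 fold change 0.31. Neither inhibitor thus separated the groups, and their highest libraries differed: ADQ 1 in Nfkbia and ADQ 3 in Tnfaip3.

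**Figure D2:**
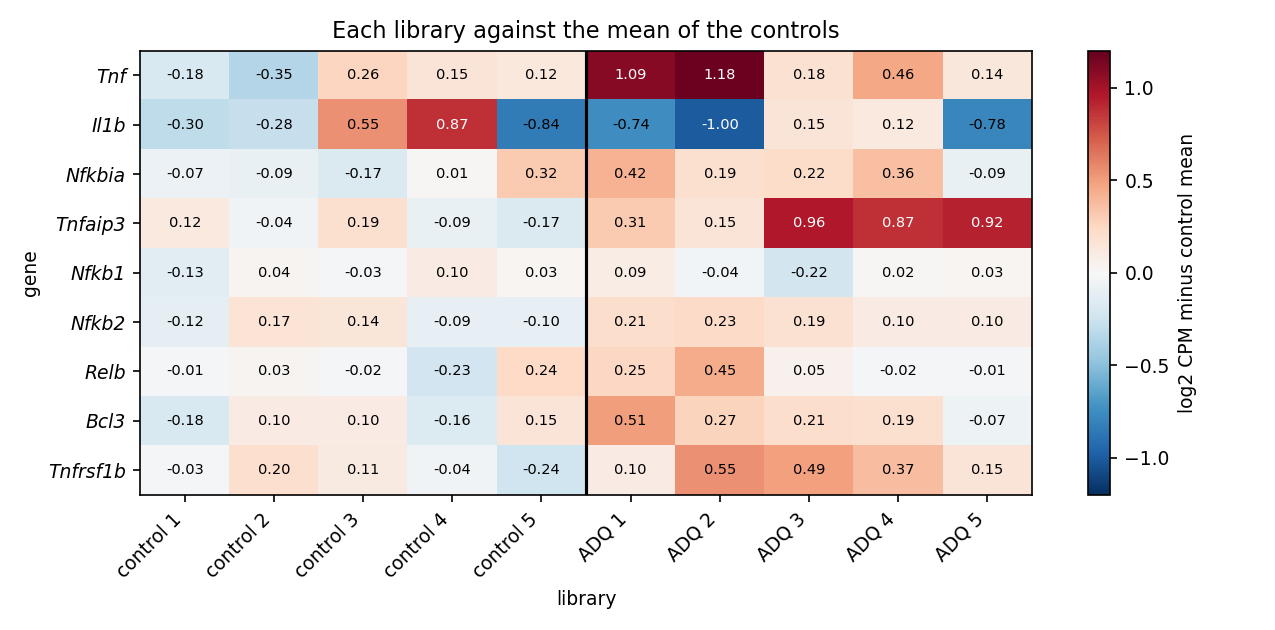
Log2 CPM of each tested member minus the mean of the 5 controls, with genes in rows and libraries in columns; red is above and blue below the control mean. The 2 highest values of Tnf are in ADQ 1 (1.09) and ADQ 2 (1.18), and the 3 highest of Tnfaip3 in ADQ 3 (0.96), ADQ 5 (0.92) and ADQ 4 (0.87).

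The transcription factor subunits and the co-regulator Bcl3 did not pass either. Nfkb1 encodes p105, the precursor of p50 in the canonical pathway. It was at 31.7 ± 1.86 CPM in control and 31.2 ± 2.45 CPM in ADQ (SD, n = 5), from 28.8 to 33.8 CPM and from 27.2 to 33.6 CPM. The 95% interval of its fold change was 0.869 to 1.11. The log2 fold change of -0.02 turned to 0.05 with libraries scaled by size alone, which moved the median of all genes to 0.097, and to 0.02 without ADQ 3. Nfkb2 encodes p100, the precursor of p52 in the noncanonical pathway. It was at 25.2, 30.7, 30.3, 25.7 and 25.6 CPM in controls 1 to 5 and at 31.7, 32.1, 31.2, 29.4 and 29.4 CPM in ADQ 1 to 5. ADQ 1, 2 and 3 were above every control, but controls 2 and 3 were above ADQ 4 and 5 (1.12-fold, edgeR adjusted p = 0.415). The gene Psd, with up to 998 counts in a library, and a divergent noncoding RNA, with up to 431, overlap Nfkb2 on the opposite strand. Since it is not given whether counting used strand, reads from the overlap cannot be told apart.

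Relb encodes the partner of p52. It was at 27.1, 27.9, 26.9, 23.3 and 32.4 CPM in controls 1 to 5 and at 32.5, 37.3, 28.4, 27.1 and 27.2 CPM in ADQ 1 to 5. Control 5 and ADQ 1 were nearly level, ADQ 2 was highest, and ADQ 3, 4 and 5 lay inside the range of the controls (1.11-fold, edgeR adjusted p = 0.57). Bcl3, a nuclear IkB-like protein that acts with p50 and p52 dimers, was at 9.62 to 12.2 CPM in control (median 11.7) and 10.5 to 15.6 CPM in ADQ (median 12.7). Of the ADQ libraries, 4 were above all controls, with ADQ 1 highest and ADQ 5 inside the control range (1.17-fold, 95% interval 0.972 to 1.41, edgeR adjusted p = 0.428).

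**Figure D3:**
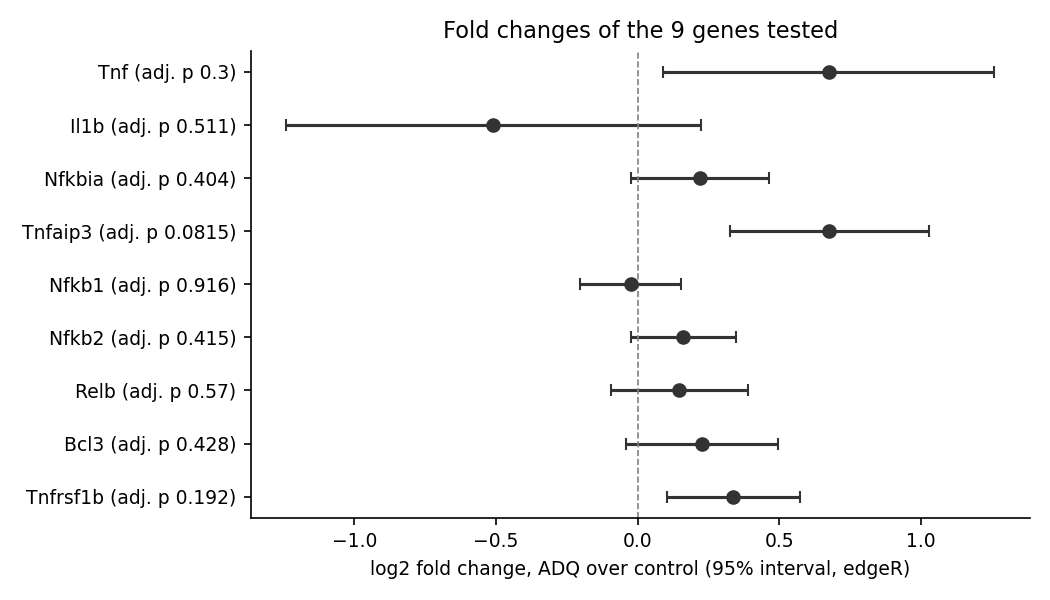
Log2 fold change of ADQ over control (horizontal axis) with its 95% interval from edgeR for the 9 genes tested, the adjusted p beside each name. The intervals of Tnf, Tnfaip3 and Tnfrsf1b lie above 0 and the other 6 include 0; no adjusted p is under 0.05, the lowest being 0.0815 for Tnfaip3.

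The rest of the pathway was read from 74 further genes, of which 71 could be tested. In edgeR 2 rose, the receptor Cd40 and the adhesion molecule Vcam1, and none fell, against 0.74% and 0.087% of all genes. Log2 fold changes were above 0 in 53 of the 71, with a median of 0.17. Over all genes tested 51.8% were above 0 and the median was 0.012. Unadjusted p was under 0.05 in 23 of them, or 32.4%, against 13.8% of all genes. Every ADQ library lay above every control library in 9 of the 71, and below in none, against 2.09% and 1.07% of all genes. DESeq2 called 12 and voom 11, against 3.26% and 3.21% of all genes. The 12 included Lcn2, which was lower in ADQ, at 13.7 ± 5.72 CPM in control and 6.62 ± 2.42 CPM in ADQ (SD, n = 5; edgeR adjusted p = 0.197). Without control 5 edgeR called 7 (357 of all 21048 genes tested), the added 5 being Cd40lg (edgeR adjusted p = 0.000811), Ltb (0.00269), Tnfsf13b (0.0121), Traf1 (0.019) and Birc3 (0.0385). Control 5 was the highest control in each of these 5 genes, most so in Cd40lg, a T cell gene, at 1.37 CPM against 0 to 0.137 CPM in controls 1 to 4. Of the 66 that the authors' deposited table lists, 13 were called there, all higher in ADQ. Over all its 15860 genes 5.42% were called and 3.79% were called higher.

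Cd40, a costimulatory receptor of antigen-presenting cells that feeds the noncanonical pathway, was at 2.64, 2.96, 3.24, 3.82 and 5.96 CPM in controls 1 to 5. It was at 10.6, 9.57, 8.01, 6.11 and 8.2 CPM in ADQ 1 to 5. All ADQ libraries were above all controls, the nearest being ADQ 4 and control 5. It rose 2.28-fold (log2 fold change 1.19, SE 0.23, edgeR adjusted p = 0.0245). The call was lost, at edgeR adjusted p values from 0.0504 to 0.0847, without any 1 of controls 1, 2 and 4 or ADQ 1, 2 and 3, and it was 0.00112 without control 5. Dendritic cell markers, of cells that carry CD40, were at 36.3 to 51.2 CPM in control and 60.0 to 71.2 CPM in ADQ, with 5 of 6 above 0 in log2 fold change, 1 passing and none at 0. For their share of counts the exact two-sided permutation p was 0.00794 (adjusted p = 0.0762 over 16 marker lists). Within control these markers were highest in control 2 (51.2 CPM), where Cd40 was at 2.96 CPM. In control 5, with Cd40 at 5.96 CPM, these markers were at 40.1 CPM. Their part in the Cd40 values was not tested.

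Vcam1, through which activated endothelium holds leukocytes, was at 32.8, 54.0, 46.0, 51.8 and 55.9 CPM in controls 1 to 5 and at 71.9, 85.2, 84.8, 73.3 and 88.7 CPM in ADQ 1 to 5. The groups did not overlap, and control 1 was well below the other controls. It rose 1.68-fold (log2 fold change 0.75, SE 0.13, edgeR adjusted p = 0.0153; 0.0567 without ADQ 2). The summed endothelial markers were at 833 to 1010 CPM in control and 699 to 985 CPM in ADQ. Of these 6 markers 3 were above 0 in log2 fold change, none passed and none was at 0 in any library. Their part in the Vcam1 values was not tested.

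**Figure D4:**
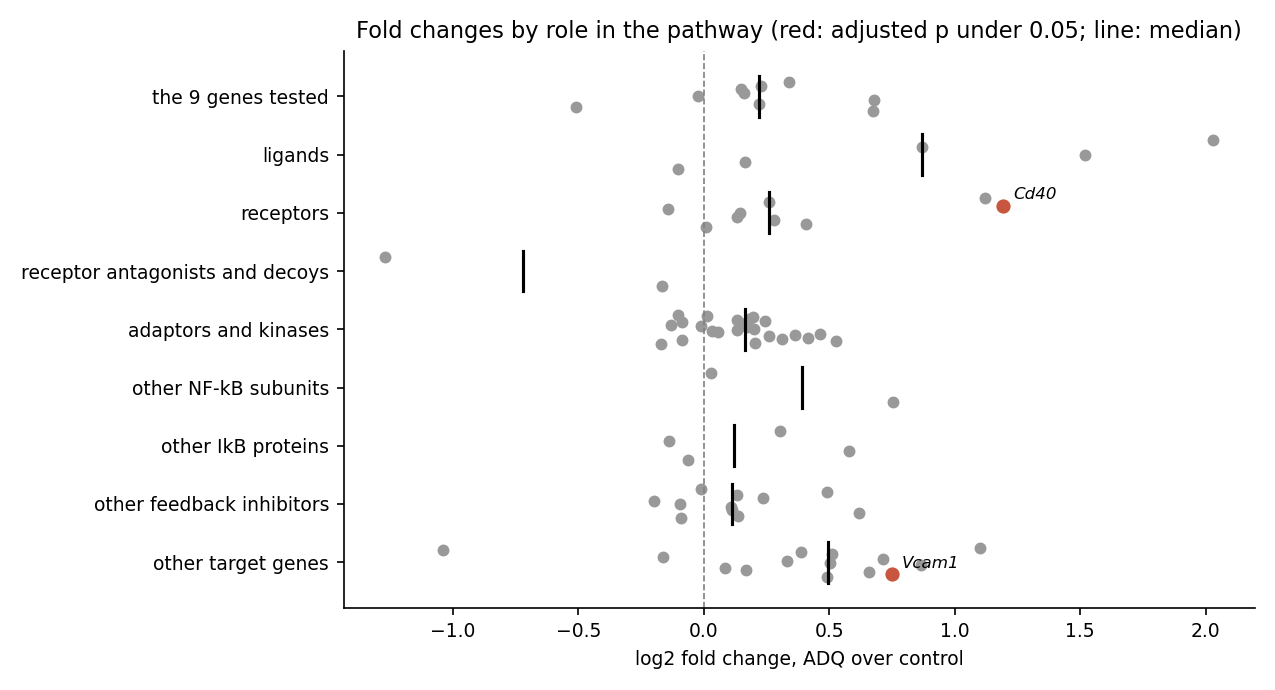
Log2 fold change of ADQ over control (horizontal axis) for the 9 members tested and, by role, the 71 other pathway genes tested; red points have an edgeR adjusted p under 0.05 and black lines are medians. Only Cd40 and Vcam1 are red, and the medians of the ligands (0.87) and of other target genes (0.50) lie farthest above 0.

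In each other list the gene of smallest p did not pass in edgeR. Among the ligands, 4 of 5 tested were above 0 in log2 fold change, and Tnfsf13b, the B cell survival factor BAFF, was at 1.81 to 3.51 CPM in control and 3.56 to 5.03 CPM in ADQ (1.83-fold, edgeR adjusted p = 0.0734; 0.0121 without control 5). Of 24 adaptors and kinases, 18 were above 0, and Birc3, a ubiquitin ligase of the TNF receptor complex, was at 10.6 to 12.5 and 13.7 to 17.4 CPM (1.38-fold, edgeR adjusted p = 0.0544; 0.0385 without control 5). Neither gene overlapped between the groups.

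The remaining NF-kB subunits differed in size of change. Rel, the subunit typical of lymphoid and myeloid cells, was at 1.39 to 2.25 CPM in control and 2.45 to 3.59 CPM in ADQ (1.69-fold, 95% interval of the log2 fold change 0.32 to 1.19, edgeR adjusted p = 0.116). Rela, the ubiquitous p65 subunit, was at 105 to 117 CPM in control and 109 to 116 CPM in ADQ, with an interval from -0.12 to 0.18.

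Among other IkB proteins Nfkbie, which encodes IkB epsilon, was at 7.57 to 10.3 CPM in control and 10.2 to 16.1 CPM in ADQ (1.49-fold, edgeR adjusted p = 0.0892). Of 11 other feedback inhibitors 7 were above 0, with a median of 0.11, and Tank, an adaptor that restrains TRAF signalling, was at 8.35 to 14.0 and 14.4 to 19.9 CPM (1.41-fold, edgeR adjusted p = 0.151). Both IL-1 antagonists tested had a log2 fold change below 0. The decoy receptor Il1r2 was at 0.625 to 3.04 CPM in control and 0.31 to 1.23 CPM in ADQ (log2 fold change -1.27, SE 0.43, edgeR adjusted p = 0.219). Its highest libraries were control 3 (3.04 CPM) and control 5 (2.81 CPM), and controls 1, 2 and 4 were at 1.72, 1.24 and 0.625 CPM. Corneal and conjunctival epithelium markers were at 117, 0.947, 1550, 51.1 and 483 CPM in controls 1 to 5 and 0.356 to 1.2 CPM in ADQ. Of these 4 markers only 2 could be tested, with a median log2 fold change of -9.68, and neither passed. The markers Krt5, Krt14 and Krt12 were at 0 in at least 1 library. Their part in the Il1r2 values was not tested.

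The 9 pathway genes whose groups did not overlap were Cd40, Vcam1, Tnfsf13b, Birc3, Rel and Tank, described above, and Traf1, Icam1 and Ccl2, which are named here because of their values. Icam1, an endothelial and leukocyte adhesion molecule, was at 97.4 ± 14.1 CPM in control and 137 ± 13.8 CPM in ADQ (SD, n = 5; edgeR adjusted p = 0.0574). Ccl2, a chemokine that attracts monocytes, was at 4.02 ± 1.31 and 7.32 ± 1.29 CPM (edgeR adjusted p = 0.115). T and NK cell markers, which include cells that express Rel and Traf1, were at 28.4 to 103 CPM in control and 92.1 to 132 CPM in ADQ, with 11 of 12 above 0 in log2 fold change, none passing and Ncr1 at 0 in at least 1 library. For the share of counts of these markers the exact two-sided permutation p was 0.0159 (adjusted p = 0.0762 over 16 marker lists). Their part in these values was not tested. Immediate early genes, which respond to the handling of tissue, were at 395 to 633 CPM in control and 412 to 507 CPM in ADQ (share of counts, exact two-sided permutation p = 0.952).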

How the data were processed

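RNA from 5 control and 5 ADQ samples was taken into TRIzol and purified on columns, and cDNA was amplified by SMARTer, per the labels' protocols. Per the submitters' processing notes, the build was GRCm38 and bcl2fastq, DRAGEN, edgeR and limma were used, in roles not stated; how reads were counted, strand included, is not given in the sources used here.

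Each value of the deposited count table is a whole-number count per gene and library. The authors' deposited comparison table holds log2 CPM values, log2 fold changes and p-values. Its score columns (t, B and a signed linear fold), made by the authors and named per the file headers, were not used.

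Of 55774 entries 287 repeats were removed. Genes passing filterByExpr (minimum count 10, total 15) were scaled by TMM and tested in edgeR 4.0.16 (limma 3.58.1, R 4.3.3) with group as the model's term (quasi-likelihood, robust); DESeq2 1.42.0 was an alternative. The fit was tested on simulated data, with changes placed in genes of mean at least 1 CPM. It recovered 32.8% of 1.5-fold, 73.1% of 2-fold and 93.9% of 4-fold changes. A gene that did not pass is thus not shown to be unchanged. Each standard error was derived from the fold change and its F statistic. No 2 libraries agreed within sampling noise (smallest chi-square 33.9 per degree of freedom). Depth was 43.6 to 64.1 M counts (M, mega); without molecular identifiers, limits from a count of 0 cover counting error only.

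The members, lists and tests were chosen with earlier results of these data known. Named are all members, each pathway gene past the threshold or else the gene of smallest p in its list, and the 5 genes of likest pattern. Tnfrsf1a, Rela, Traf1, Icam1, Ccl2, Cd40lg, Ltb and Lcn2 fall outside this rule and were chosen after their values were seen. Positions and exon lengths come from GENCODE M21 (GRCm38), sequences from RefSeq. Alternatives were other scalings, filters and tests, each library left out, and the replicate number as a block.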

Additional observations from a re-analysis of the deposited data

Results flagged for a closer look

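A library lay far from the other 4 of its group in 5 of 52 sets of values; chance alone gives about 1 in 20. No such library was seen in a member gene. In control, summed T and NK cell markers were high in control 5 (103 CPM, the next at 42.2), rod markers in control 1 (1720 CPM, the next at 400.0) and immediate early genes in control 2 (633 CPM, the next at 455). In ADQ, mast cell markers were high in ADQ 1 (75.6 CPM, the next at 33.0) and skeletal muscle markers low in ADQ 5 (297 CPM, the next at 1360).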

How the results depend on the processing

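Genes called over all genes tested numbered 171 in edgeR, 768 with DESeq2, 664 with voom and 694 with the replicate block, and 78 (without control 4) to 357 (without control 5) with 1 library left out. Of these 171, 153 were higher in ADQ; the voom split was 511 to 153, that of DESeq2 502 to 266 and that of the replicate block 392 to 302. Members called numbered 0; the count was 1 with no filter on low counts, 1 with DESeq2 and 1 with voom (Tnfaip3 each time), 2 with the replicate block (Tnfaip3 and Tnfrsf1b), and 0 to 1 with 1 library left out. Other pathway genes called numbered 2; the count was 4 with no filter, 4 with at least 1 CPM in 5 libraries, 12 with DESeq2, 11 with voom, 10 with the replicate block, and 0 (without ADQ 2) to 7 (without control 5) with 1 library left out. It was 1 without control 1, control 4 or ADQ 3. Nfkb1 changed sign with libraries scaled by size alone (0.0532) and without ADQ 3 (0.0219, against down to -0.053 without control 1); the cause was not tested. The other 8 members tested kept their direction in every setting run. Same-numbered libraries of the groups had correlations of their deviations from -0.113 to 0.163, and 1 of 5 was best matched to its own number. These correlations show no clear pairing by number, but so few libraries cannot exclude one. The replicate block, which would take up such a pairing, called 694 genes against 171 without it. Whether a pairing lies behind that difference was not tested. Depth limits Il6, which has at most 12 counts in a library.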
